A study of Apis mellifera with 9 samples.

Results

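Quercetin is a flavonol that honey bees take up with pollen, nectar and honey, and 47 of the 15314 features in the count table, or 0.307%, rose with its dose in the larval diet in a stepwise manner. A feature belonged to these 47 when all libraries of larvae on 0.1 mM quercetin lay above all control libraries, and all libraries on 0.25 mM lay above all libraries on 0.1 mM. Its CPM, the count scaled to a library total of 1000000 feature reads, also had to average at least 5 over the 9 libraries, with a mean at 0.25 mM of at least 1.5 times control and at least 1.2 times that at 0.1 mM. The members were thus chosen by the measured values of all 9 libraries in every comparison of diets, and their differences between diets are given below as a description. Calls from the fit over all features are counted once for completeness and support nothing about the members.

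The study sequenced RNA from larvae of the honey bee, Apis mellifera, from a research apiary, which were moved into well plates just after hatching. All groups ate a semi-artificial food of 50% royal jelly and 50% sugar and yeast solution for 3 days, with no quercetin in the control diet, 0.1 mM quercetin in the second diet and 0.25 mM in the third. There were 3 libraries per diet, and since each replication used 10 to 12 larvae, a library is a pool of animals. The labels give whole larvae as the material but speak of midguts in the extraction protocol, and the tissue could not be checked against marker genes because the features carry numbers without names.

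In plant-feeding insects, flavonols of the food are cleared by oxidising enzymes such as the cytochrome P450 family, by enzymes that attach sugar or glutathione, and by membrane pumps that export the products. Enzymes of this kind are found in the midgut and the fat body, and the genes that encode them often lie side by side in the genome as tandem copies. Which, if any, of the 47 features encode such proteins is not known here: the reference table of 12398 genes holds 0 of the 15314 identifiers, so none of the gene lists on detoxification, immunity, nutrition or tissue markers could be applied. The members are called by their identifiers.

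Between 34456449 and 42874091 reads per library fell on features, and the least covered member still had 87 reads in its lowest library. The 3 columns of the 0.25 mM diet share a heading and are called libraries a, b and c in table order, as names only. Library a stood apart from b and c. The most abundant feature took 9.26% of feature reads in library a, 9.9% in b and 10.2% in c, and no more than 8.56% in any other library. Composition factors for the library size (TMM) lay between 0.957 and 0.978 at 0.25 mM and between 1.01 and 1.03 in control, so a CPM value that leaves them out is lower at 0.25 mM than one that uses them: the median log2 ratio of 0.25 mM to control over the 8158 features with at least 5 CPM was -0.11 on plain CPM and -0.04 with TMM. At 0.1 mM the factors were 0.989, 1.001 and 1.058 in replications 1, 2 and 3, the last being the highest of all libraries. Plain CPM is the scale of the rule and of all levels below. It is not corrected for transcript length, so levels are compared between diets and not between features.

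Of the 8158 features with at least 5 CPM, 775 (9.5%) were separated upward at the first step, 378 (4.63%) at the second and 86 (1.05%) at both, and 1089 (13.3%) had all libraries of 0.25 mM above all controls. The fold minima left 47 of the 86. The members rose by moderate amounts. The mean at 0.25 mM was 1.5 to 4.31 times the control mean, with a median of 1.83, and it reached 2-fold in 16 of the 47 members, 3-fold in 4 and 4-fold in 2. At 0.1 mM the mean was 1.1 to 2.2 times control, with a median of 1.24. The ratio of 0.25 mM to 0.1 mM ran from 1.25 to 2.32, with a median of 1.41. Over all 8158 features with at least 5 CPM the corresponding medians were 0.926 for 0.25 mM to control, 0.986 for 0.1 mM to control and 0.937 for 0.25 mM to 0.1 mM.

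The median level of the 47 members, each divided by its own control mean, stood at 0.975, 0.987 and 1.05 in the control libraries. It stood at 1.17, 1.24 and 1.34 in libraries 1, 2 and 3 of 0.1 mM, and at 1.49, 1.93 and 2.01 in libraries a, b and c of 0.25 mM. Library a thus lay closer to the highest 0.1 mM library than to library b. Together the members held 0.191% ± 0.00966 of feature reads on the control diet, 0.246% ± 0.0197 on 0.1 mM and 0.351% ± 0.0496 on 0.25 mM quercetin (mean ± SD over 3 libraries). The median member averaged 31 CPM over the 9 libraries, against 38.3 CPM for the median feature with at least 5 CPM. Of the 47, 8 averaged under 10 CPM, 30 lay between 10 and 100 CPM, and 9 lay at 100 CPM or more, up to 255 CPM.

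**Figure D1:**
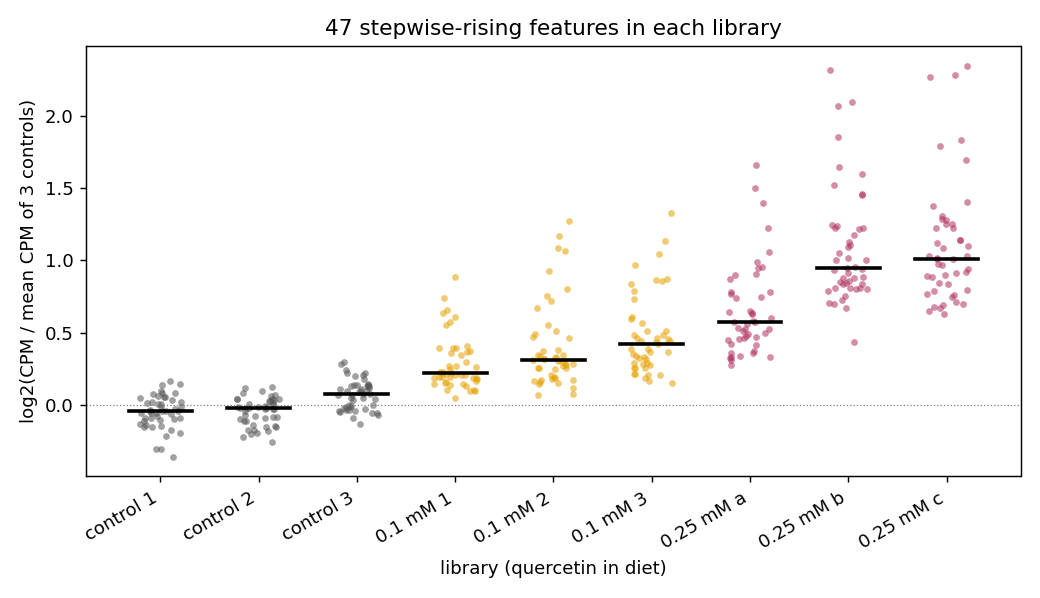
Each point is 1 of the 47 stepwise-rising features, plotted as the log2 of its CPM over its mean in the 3 control libraries, with libraries on the x axis in order of dose and a bar at the median. The medians rise from diet to diet by construction of the rule, and library a of 0.25 mM lies below libraries b and c.

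The largest increase over control belonged to GB42048-RA. It had 2.33, 2.93 and 3.35 CPM in control, 4.39, 6.93 and 6.3 CPM at 0.1 mM, and 9.05, 14.3 and 13.8 CPM in libraries a, b and c of 0.25 mM. The lowest 0.1 mM library was 1.31 times the highest control, and the lowest 0.25 mM library was likewise 1.31 times the highest 0.1 mM library. Its mean at 0.25 mM was 4.31 times control, a log2 difference of 2.18 ± 0.23 (± SE, edgeR), and its mean at 0.1 mM was 2.04 times control, with a log2 difference of 1.03 ± 0.231. The step between the doses was 2.11-fold, so both steps were nearly equal on the log2 scale.

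GB41471-RA, the other member past 4-fold, had 6.92, 5.37 and 6.4 CPM in control, 9.71, 13.2 and 12.9 CPM at 0.1 mM, and 17.6, 26 and 31.7 CPM at 0.25 mM. Every diet was separated from the next by more than the range of the controls. Its mean was 4.03 times control at 0.25 mM and 1.92 times control at 0.1 mM, with log2 differences of 2.08 ± 0.209 and 0.94 ± 0.207 (± SE).

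The largest step between the doses, 2.32-fold, belonged to GB42046-RA, with 3.57, 4.12 and 3.66 CPM in control, 4.34, 6.59 and 6.91 CPM at 0.1 mM, and 6.93, 16.2 and 18.4 CPM at 0.25 mM. Its size rests on libraries b and c: library a was only 1.002 times the highest 0.1 mM library, and the mean of b and c was 2.49 times library a, the widest such gap among the 47. The mean at 0.25 mM was 13.8 ± 6.08 CPM, against 3.78 ± 0.297 CPM in control (SD, n = 3 each).

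GB52802-RA showed the opposite shape, with the largest first step. It had 2.63, 2.52 and 3.23 CPM in control, 5.16, 6.28 and 7.01 CPM at 0.1 mM, and 7.37, 8.45 and 9.94 CPM at 0.25 mM. Its mean was 2.2 times control at 0.1 mM and 3.07 times control at 0.25 mM, so 70.3% of its log2 rise had been reached at the lower dose, the highest share among the members. It also had the lowest mean level of the 47, at 5.84 CPM.

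**Figure D2:**
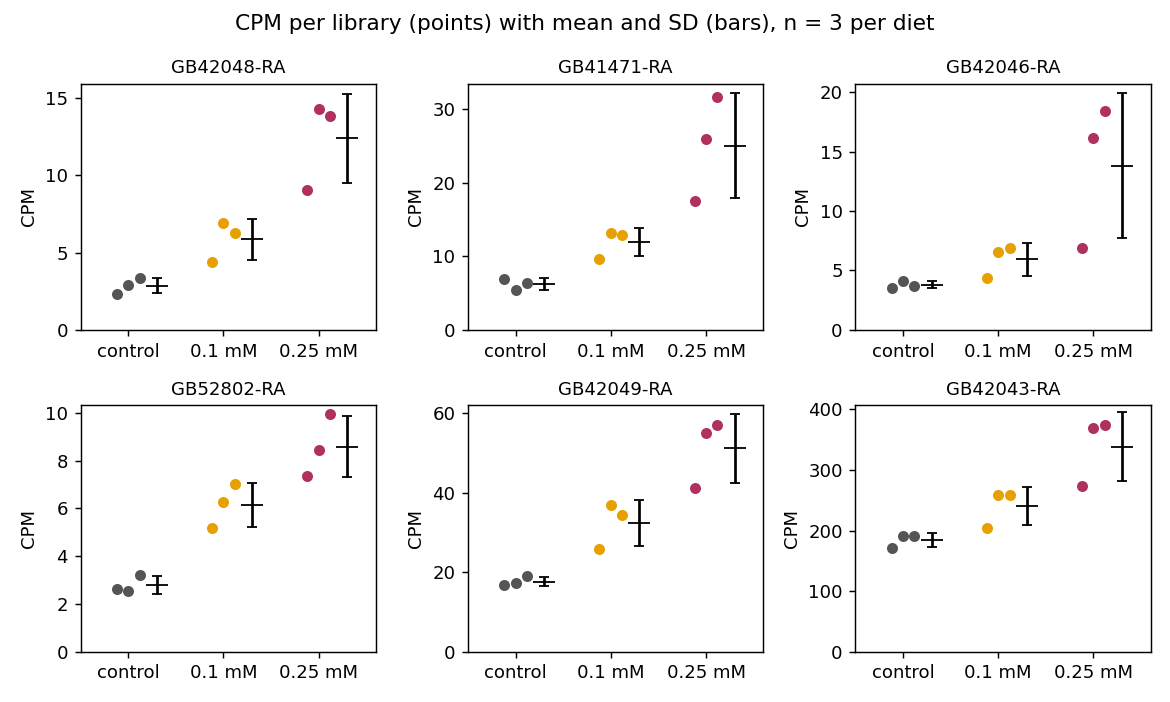
CPM of 6 stepwise-rising features by diet, in order of dose; points are single libraries (1 to 3 or a to c from left to right) and bars give the mean and SD of the 3 libraries. In all 6 panels library a is the lowest of the 0.25 mM libraries and replication 1 the lowest of 0.1 mM.

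The members differed in how the rise was divided between the doses. On the log2 scale, a median of 39.6% of the rise from control to 0.25 mM had been reached at 0.1 mM, with an SD of 10.1 percentage points when each 0.1 mM library was taken alone (n = 3), and single members ran from 20.4% to 70.3%. The lower dose is 40% of the higher one. The share is a log2 measure bounded by the fold minima of the rule, so its closeness to this figure is not read as a dose relation. As a ratio, the step between the doses was the larger one in 39 members and the step from control to 0.1 mM in 8. Counted as CPM gained per 0.1 mM of quercetin, the second step was the steeper one in 35 members and the first in 12. The second step alone had a fold minimum in the rule, which favours members of the first kind. At 0.1 mM, 8 members stood at 1.5 times control or more and 16 at under 1.2 times, and the mean at 0.25 mM was at least 1.5 times that at 0.1 mM in 13.

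**Figure D3:**
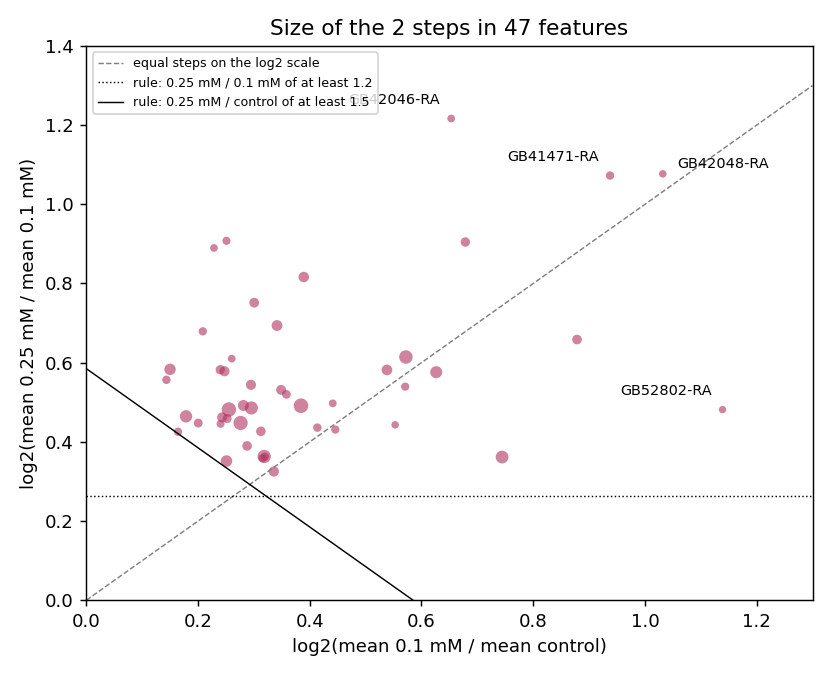
Each point is 1 of the 47 features, with the log2 ratio of 0.1 mM to control on the x axis and of 0.25 mM to 0.1 mM on the y axis; point area grows with mean CPM, and lines mark the 2 fold minima and equal steps. Most points lie above the line of equal steps, and GB52802-RA lies farthest to the right.

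The rule leaves the order of libraries within a diet free. At 0.25 mM, library a was the lowest of the 3 in 45 of the 47 members, or 95.7%, and the highest in 0, while b was the highest in 21 and c in 26. Over all 8158 features with at least 5 CPM, library a was the lowest in 43.5% and the highest in 45.5%. The exceptions, picked out after their values were seen, were GB52275-RA, lowest in library b, and GB50871-RA, lowest in library c with 179, 200 and 175 CPM in a, b and c. The mean of b and c was 1.3 times library a in the median member and at least 1.5 times in 10 members, and 0.996 times library a in the median of all 8158 features. The 8158 include falling as well as rising features, so their shares are no background for rising features alone. In library a alone, 21 members stood at 1.5 times control or more. At 0.1 mM, replication 1 was the lowest in 35 members and replication 3 the highest in 32, beside 50% and 62% of all features. Controls 1, 2 and 3 were lowest in 19, 19 and 9 members, or 40.4%, 40.4% and 19.1%, beside 30.9%, 34.3% and 34.8% of all features. Control 3 was the highest in 29 members, or 61.7%, beside 22.8% of all features. Members share their libraries, so these counts describe the libraries as much as the features, and which of them reflects the diet was not tested.

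Library a also kept many features out of the 47. Both fold minima were met by 319 of the 8158 features, of which 272 had overlapping libraries and so were not members. In 90 of the 272 the first step was separated and the second overlapped, and in 86 of these 90 libraries b and c lay above all 0.1 mM libraries while library a did not. With library a left out, 209 features met the rule, all 47 members among them. Without 0.1 mM replication 3 the number was 110, again with all 47, and without any other single library it ran from 43 to 68. Leaving out libraries cannot undo a separation that held with all of them. A member could thus drop out only through a fold minimum or the mean CPM, so no stability is read from the members kept. With b and c both left out, which was tried only after seeing the values, 21 features met the rule, of which 16 were among the 47.

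Scaling the library sizes for composition had a similar reach. With TMM factors 143 features met the rule and with the size factors of DESeq2 155, each including 45 of the 47. The members lost under both were GB48147-RA and GB52642-RA, named here after the result was seen. The mirrored rule, with every inequality turned round, was met by 405 features on plain CPM and by 193 with TMM. Falling features therefore outnumbered rising ones on both scales, by a margin that depended on the scale. Without the fold minima, 86 of the 8158 features, or 1.05%, were separated upward at both steps and 949, or 11.6%, downward, against 291 upward and 539 downward with TMM.

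**Figure D4:**
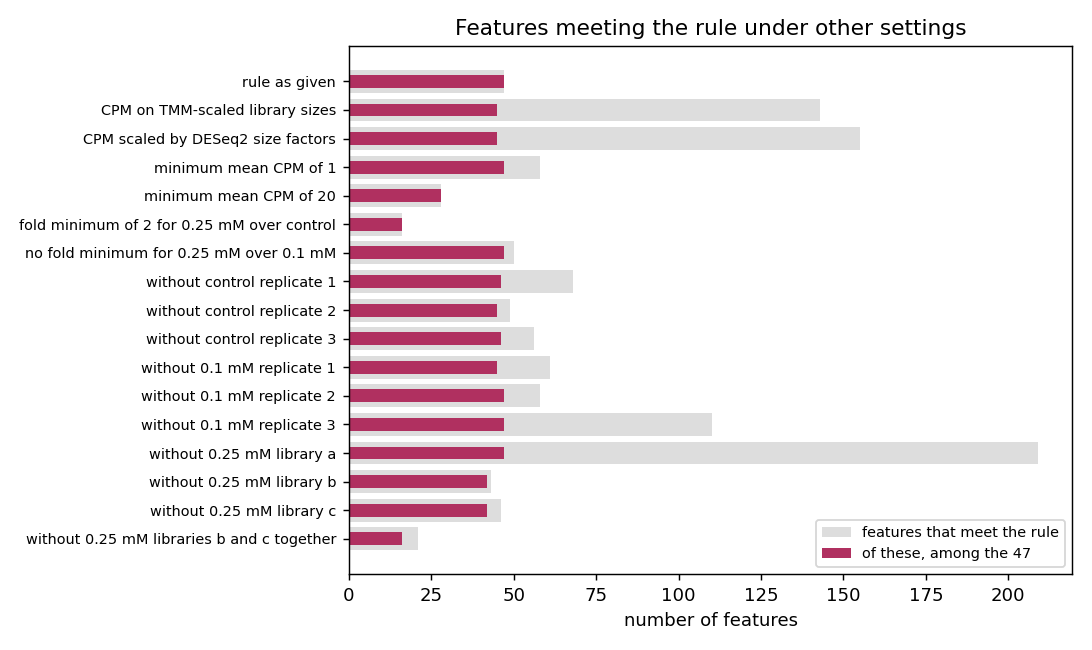
Number of features that meet the rule (wide bars) and how many of these are among the 47 (narrow bars) under each setting. The number is 209 without library a of 0.25 mM and 143 with TMM-scaled library sizes. Under each other scaling and each omission of a single library, 42 or more of the 47 meet the rule. An omission cannot undo a separation, so it can remove a member only through a fold minimum or the mean CPM.

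Members just inside the thresholds had close counterparts just outside. The smallest rise over control among members was 1.5049-fold, and the nearest separated feature below the threshold had 1.496-fold. The smallest step between the doses among members was 1.25-fold, beside 1.19-fold for the nearest feature outside. The lowest mean was 5.84 CPM inside and 4.01 CPM outside. For 1 member the lowest 0.1 mM library was 1.0002 times the highest control, and for another the lowest 0.25 mM library was 1.0006 times the highest 0.1 mM library, while the nearest features outside stood at 0.998 and 0.9998. The first of these 2 members, GB44860-RA, named for this closeness, had 452 reads in that 0.1 mM library and 446 in that control, with a counting error of 4.7% and 4.74% of each. The median gaps were 1.06 and 1.08, so in many members the diets were separated by gaps of a few percent.

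The fit over all features used the same contrasts as the rule, so nothing is read from the members' calls. For 0.25 mM against control all 47 were called higher (edgeR quasi-likelihood test over 11508 features, adjusted p under 0.05), where 17.1% of all features were called higher. For 0.1 mM against control 0 of the 47 were called in edgeR, where 0.0695% of all features were. DESeq2 called 10, beside 1.15% of all features. For 0.25 mM against 0.1 mM 0 were called in edgeR, where 0% of all features were, and DESeq2 called 46, beside 8.82% of all features. Without library a, edgeR called 46 of the 47 between the doses, where 21.4% of all features were called higher, and 9 at 0.1 mM, where 0.88% were. GB50871-RA was the member not called between the doses, both in DESeq2 and in edgeR without library a.

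Some members carry identifiers with close numbers, which the rule did not use. Of the 47, 8 had another member within 3 numbers, in 3 groups: GB42043-RA, GB42046-RA, GB42048-RA and GB42049-RA, then GB47479-RA and GB47482-RA, then GB54356-RA and GB54358-RA. They were singled out after their values were seen. The sources used here do not say whether close numbers mean neighbours on a chromosome, nor whether near-identical copies or overlapping features could share reads, so the values within a group may not be independent.

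In the first group, GB42046-RA, GB42048-RA and GB42049-RA are consecutive lines of the table. GB42049-RA had 16.8, 17.2 and 19 CPM in control, 25.9, 36.9 and 34.5 CPM at 0.1 mM, and 41.2, 55.2 and 57.1 CPM at 0.25 mM. Its mean was 2.9 times control at 0.25 mM and 1.84 times control at 0.1 mM. GB42043-RA had 172, 191 and 191 CPM in control, 205, 259 and 259 CPM at 0.1 mM, and 273, 369 and 374 CPM at 0.25 mM, with a mean 1.83 times control at the higher dose. In all 4, library a was the lowest at 0.25 mM and replication 1 the lowest at 0.1 mM. Some ratios within the group moved with the diet. The ratio of GB42049-RA to GB42048-RA was 6.23 ± 0.828 on control food, 5.56 ± 0.288 on 0.1 mM and 4.18 ± 0.351 on 0.25 mM quercetin (mean ± SD, 3 libraries). That of GB42046-RA to GB42043-RA was 0.0205 ± 0.00127, 0.0244 ± 0.00288 and 0.0394 ± 0.0125 in the same order. Ratios to GB42046-RA overlapped within the SD between control and 0.25 mM. They were 0.761 ± 0.138 and 0.981 ± 0.289 for GB42048-RA, and 4.69 ± 0.509 and 4.16 ± 1.56 for GB42049-RA. Of the features numbered between and just after them, GB42045-RA averaged 0.114 ± 0.0153 CPM at 0.25 mM and 0.072 ± 0.0307 CPM in control and was too low to be tested. GB42051-RA rose, by 0.28 ± 0.0757 on the log2 scale (SE), to 52.1 ± 5.09 CPM at 0.25 mM, against 45.3 ± 1.78 CPM in control (adjusted p = 0.0229 in edgeR). GB42044-RA and GB42050-RA did not pass the test: GB42044-RA averaged 0.999 ± 0.28 CPM at 0.25 mM and 0.969 ± 0.311 CPM in control, and GB42050-RA 1.29 ± 0.107 CPM at 0.25 mM and 1.14 ± 0.0612 CPM in control (edgeR, adjusted p = 0.771 and 0.219).

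The second group kept a near-constant ratio. GB47479-RA had 51.5, 49.9 and 50.4 CPM in control, 55.5, 56.7 and 72.2 CPM at 0.1 mM, and 75.8, 102 and 81.2 CPM at 0.25 mM. GB47482-RA had 180, 173 and 173 CPM in control, 200, 190 and 246 CPM at 0.1 mM, and 253, 336 and 279 CPM at 0.25 mM. Both peaked in library b, and in both replication 3 of 0.1 mM came close to library a. The ratio of GB47482-RA to GB47479-RA was 3.46 ± 0.0259 on control food, 3.46 ± 0.132 on 0.1 mM and 3.35 ± 0.0764 on 0.25 mM quercetin (mean ± SD, 3 libraries), and ran from 3.28 to 3.61 over the 9 libraries. The features numbered between them moved the other way. GB47480-RA averaged 3.79 ± 2.03 CPM at 0.25 mM and 9.45 ± 1.05 CPM in control, and its log2 level fell by 1.23 ± 0.302 (SE; adjusted p = 0.0166 in edgeR). GB47481-RA averaged 14.2 ± 5.8 CPM at 0.25 mM and 26 ± 0.709 CPM in control, and its log2 level fell by 0.80 ± 0.228 (adjusted p = 0.0264 in edgeR).

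In the third group, GB54356-RA had 13.8, 16 and 16.1 CPM in control, 20.3, 25.8 and 27.3 CPM at 0.1 mM, and 29.6, 55.1 and 52.8 CPM at 0.25 mM. GB54358-RA had 35.7, 36.6 and 39.2 CPM in control, 47.7, 59.2 and 55.1 CPM at 0.1 mM, and 63.3, 87 and 92.1 CPM at 0.25 mM. Their means at 0.25 mM were 2.997 and 2.17 times control. The ratio of GB54358-RA to GB54356-RA was 2.44 ± 0.147 in control, 2.22 ± 0.178 at 0.1 mM and 1.82 ± 0.287 at 0.25 mM. GB54357-RA, numbered between them, was too low in mean CPM for the rule, and its means also missed both fold minima. It had a single step, averaging 3.06 ± 0.26 CPM in control, 4.33 ± 0.248 CPM at 0.1 mM and 4.52 ± 0.325 CPM at 0.25 mM. Its log2 difference between 0.25 mM and control was 0.64 ± 0.12 (± SE, edgeR, adjusted p = 0.00883).

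**Figure D5:**
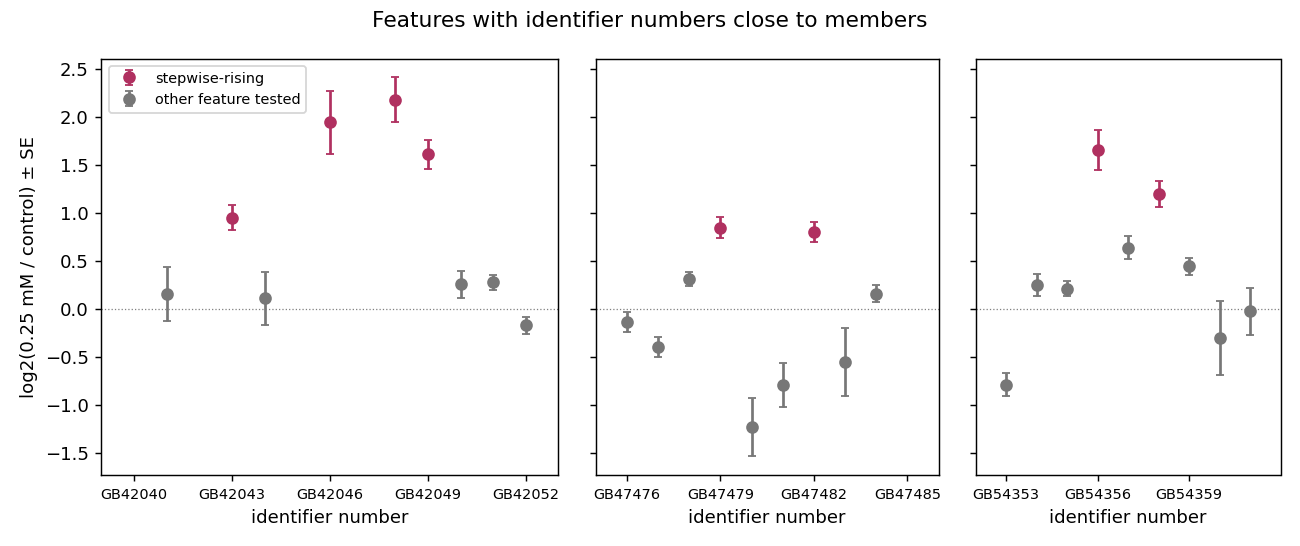
Log2 difference of 0.25 mM to control (edgeR, on TMM-scaled library sizes, bars ± SE) for features in order of identifier number around the 3 groups; the x axis is the number in the identifier, not a position in the genome. The stepwise-rising features stand at 0.80 to 2.18, and the 2 features between GB47479-RA and GB47482-RA lie below 0.

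Around all 47 members, these groups included, 248 features that were not members had a number within 3 of a member, and 177 of them were tested. The features named above that are numbered between or just after group members are among the 248. Of the 177, 45, or 25.4%, were called higher at 0.25 mM than in control (edgeR, adjusted p under 0.05), where 17.1% of all features were called higher. Another 25, or 14.1%, were called lower, where 18.5% of all features were. The difference between these shares was not tested. The 45 became 18 without library c and 18 without control 2, 24 without library b and 27 without control 3. These are 10.2%, 10.2%, 13.6% and 15.3% of those tested, beside 5.89%, 6.42%, 7.8% and 8.55% of all features in the same fits. Without library a the count was 63, or 35.6%, beside 27.4% of all features. In the remaining fits it ran from 30 (16.9%, beside 11.9%) without control 1 to 47 (25.4%, beside 17.7%) in DESeq2.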

How the data were processed

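The deposited file is a single table of unnormalised read counts for 9 libraries (3 diets with 3 libraries each). The submitters' processing notes name CASAVA 1.8, HTSeq and edgeR and give them no roles. For the aligner, genome build, annotation and strand setting: not given in the sources used here. Each column's heading gave its diet, 5 bookkeeping lines were kept out of library sizes, and 0 columns were left unused. Fits used edgeR 4.0.16 in R 4.3.3 (filterByExpr, TMM, quasi-likelihood test with 1 coefficient per diet over all 9 libraries, 6 residual degrees of freedom, 11508 features kept, Benjamini-Hochberg over all of them, threshold 0.05). DESeq2 1.42.0 was an alternative. Named genes were, per comparison of diets, the 2 members with the largest ratio of means; others are marked as picked after their values were seen. The members and lists were chosen with earlier results of these data known. The labels call the replications independent without naming colonies; p-values cover only the spread among these libraries, which may be technical. Alternatives were other scalings, filters and fold minima, fits of 2 diets alone, a replicate block, and each library left out. The main fit did not pair control with 0.1 mM libraries by replication number. Correlations between same-numbered libraries, given below, rest on 3 libraries per diet and cannot settle whether the numbers mark pairs. Of all reads, 13.6% (control), 13.4% (0.1 mM) and 12.4% (0.25 mM) lay on no feature, and ambiguous reads made up 3.55%, 3.47% and 3.14% in the same order.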

Additional observations from a re-analysis of the deposited data

Results flagged for a closer look

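Reads that did not align enter no comparison above. Their share of all reads averaged 17.9% ± 0.526 at 0.25 mM (SD, n = 3), above the highest control library at 17.7%, with a control mean of 17.3% ± 0.37. It was 17.3% in library a, 18% in b and 18.4% in c, so the excess was in the 2 libraries in which the stepwise-rising features also stood highest. Its part in the members' values was not tested.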

How the results depend on the processing

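The number of members was 47 under the rule as given. It was 143 with TMM scaling, 155 with DESeq2 size factors, 28 with a minimum mean of 20 CPM, 16 with a fold minimum of 2 over control, and 21 without libraries b and c together (tried after seeing the values). With each library left out in turn it ran from 43 to 209. The median share of the rise reached at 0.1 mM was 39.6%. It ran from 34.7% (without library a) to 44.7% (without 0.1 mM replication 1) over the alternatives. Each move was less than its SD of 10.1 percentage points. That SD comes from single 0.1 mM libraries, so leaving out 1 of them could hardly exceed it. The rule used the same contrasts as the calls that follow, so their stability says nothing about the members. All 47 were called at 0.25 mM against control in every fit run, where 5.89% to 27.4% of all features were called higher. For 0.1 mM against control, edgeR called 0 members, beside 0.0695% of all features called higher. It called 1 without a filter (GB52802-RA), beside 0.107%, and 3 with only the 6 libraries compared, beside 0.282%. With 1 library left out it called 0 to 9, beside 0% to 0.88%, and DESeq2 called 10, beside 1.15%. With the replication number as a block edgeR called 2 (GB50669-RA and GB54356-RA), beside 0.194% of all features. Deviations of same-numbered control and 0.1 mM libraries correlated with -0.232, 0.0894 and -0.208, and no 0.25 mM column carries a number of its own. For 0.25 mM against 0.1 mM, edgeR called 0 members, beside 0% of all features. With 1 library left out it called 0 to 46, beside 0% to 21.4%, highest without library a. DESeq2 called 46, beside 8.82%. For the 10 members given library by library, alone or in close-numbered groups, 80 alternatives could change the ratio of 0.25 mM to control. All moved it by less than 1 SD of the 3 libraries at 0.25 mM (relative to the control mean). Leaving out 1 of these 3 cannot move their mean by 1 SD, so the outcome of those runs was fixed. The limit is also loose where that spread is wide, so no stability is read from this count. Counting error was 10.7% at the lowest member count of 87 reads and 3.71% at the median member's lowest count of 727 reads, and covers counting only.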
